A study of Mus musculus with 8 samples.

Results

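The resting expression profile of parental JoMa1, a mouse neural crest precursor line, was read from 3 of the series' 8 arrays, those titled as parental JoMa1. The other arrays hold 1 sample of JoMa1 carrying a GFP control and 4 lines from tumours that JoMa1 formed after MYCN transfection. They enter no main value below. An alternative setting, used only to see how results depend on the processing, chose probe sets by the mean over all 8 arrays. All 3 parental samples were total RNA of untransfected JoMa1, taken below full confluence and labelled with biotin. The line was immortalised with a MYC protein fused to a tamoxifen-responsive oestrogen receptor domain, and the sources used here do not say whether tamoxifen was present at harvest. Nothing in the labels states that the arrays came from separate cultures, so the spread between them may be technical.

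The neural crest is a migratory population that leaves the dorsal neural tube of the vertebrate embryo. It gives rise to sympathetic and sensory neurons, Schwann cells, pigment cells and, in the head, bone, cartilage and connective tissue. Its cells are specified by transcription factors of the SOXE, SNAIL, PAX, ZIC and AP-2 families, and the trunk crest also produces the sympathoadrenal lineage from which neuroblastoma arises.

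Levels are the deposited log2 values, and ± gives the SD over the 3 arrays. A level was read against 2 references. The bacterial TrpnX control probe sets, which have no mouse target, averaged 3.90, 3.91 and 3.89 on arrays 1, 2 and 3. The other reference was 66 genes of unrelated tissues such as liver, testis and pancreas, whose 90th percentile lay at 6.84, 6.94 and 6.79. A gene was counted as above the range when it exceeded that percentile on each array. This held for 9828 of 18193 genes, 54.0%, which is the background for every count below made the same way. Counts under another probe set choice or limit have another background, given with those settings. By mean distance from TrpnX, 3312 genes (18.2%) lay at the control level (under 1), 4900 (26.9%) were low (1 to under 3), 5699 (31.3%) intermediate (3 to under 6) and 4282 (23.5%) high (6 or more). Probe sets differ in affinity, so an order between genes is approximate, and a gene below the limit may still be transcribed.

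**Figure D1:**
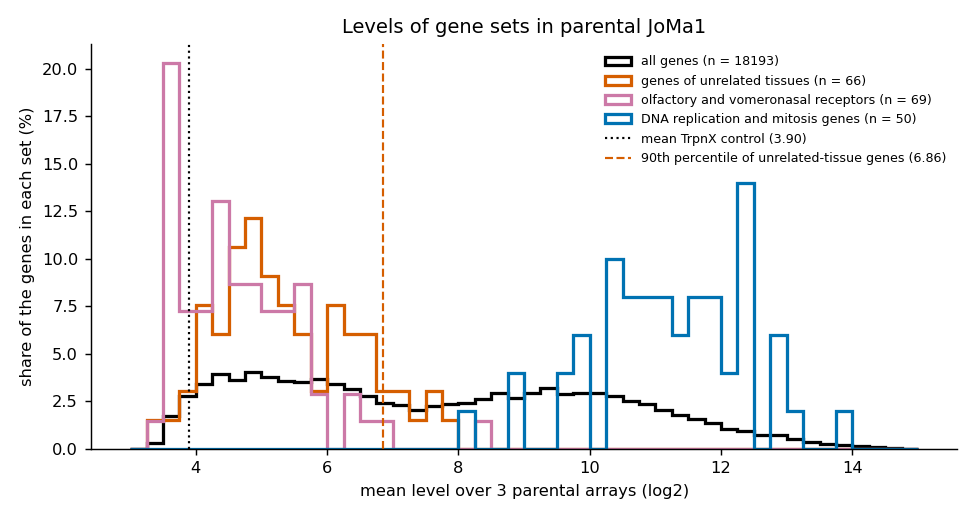
Share (%) of the genes of each set by mean log2 level over the 3 parental JoMa1 arrays, for all 18193 genes, 66 genes of unrelated tissues, 69 olfactory and vomeronasal receptor genes and 50 replication and mitosis genes, with the mean TrpnX level (3.90, dotted) and the mean 90th percentile of unrelated-tissue genes (6.86, dashed). Receptor and unrelated-tissue genes lie mostly left of the dashed line, all replication and mitosis genes lie right of it, and all genes spread over both sides.

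The 3 arrays gave nearly the same profile. The median absolute difference between a pair of arrays was 0.080 to 0.097 over genes, and 2 to 5 genes differed by 2-fold or more in a pair. The median SD was 0.043 for high genes, 0.058 for genes above the range and 0.117 for genes not above it. Array 3 stood apart in the hybridisation controls, with bioB at 7.70 against 8.90 and 8.95. Its difference between 3′ and 5′ probe sets of Actb, a sign of RNA quality, was 0.63, against 0.64 and 0.63. When any 1 array was left out, array 3 included, no count over the lineage lists or the HOX genes moved by more than 2 genes.

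For 4 genes at the ends of the scale, the 250 bases before the RefSeq transcription start in GRCm38.p6 are printed, with every CG dinucleotide and every TATAAA in capitals. Rpsa (chr9:120127516-120127765, plus strand) encodes a ribosomal protein and was among the 30 highest genes, and Col3a1 (chr1:45311288-45311537, plus strand) encodes type III collagen and ranked 33. Sox2 (chr3:34649745-34649994, plus strand), a neural stem cell factor, and Tyr (chr7:87493513-87493762, minus strand), the pigment enzyme tyrosinase, lay at the control level. They are shown because each pair holds a promoter rich in CG and one without any.
Rpsa: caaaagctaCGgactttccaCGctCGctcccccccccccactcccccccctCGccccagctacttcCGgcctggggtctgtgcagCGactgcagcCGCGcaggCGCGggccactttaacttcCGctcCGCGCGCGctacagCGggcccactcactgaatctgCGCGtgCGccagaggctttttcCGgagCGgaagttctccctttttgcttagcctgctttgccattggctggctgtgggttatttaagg
Col3a1: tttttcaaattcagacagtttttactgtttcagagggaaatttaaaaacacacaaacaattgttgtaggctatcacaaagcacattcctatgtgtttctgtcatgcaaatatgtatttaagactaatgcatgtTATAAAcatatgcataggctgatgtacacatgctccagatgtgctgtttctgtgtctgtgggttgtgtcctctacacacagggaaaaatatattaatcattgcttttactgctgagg
Sox2: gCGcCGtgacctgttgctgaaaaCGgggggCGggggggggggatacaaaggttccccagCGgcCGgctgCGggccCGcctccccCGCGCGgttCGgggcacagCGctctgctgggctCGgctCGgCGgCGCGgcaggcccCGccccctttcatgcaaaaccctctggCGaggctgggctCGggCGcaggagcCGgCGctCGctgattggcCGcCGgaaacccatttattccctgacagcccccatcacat
Tyr: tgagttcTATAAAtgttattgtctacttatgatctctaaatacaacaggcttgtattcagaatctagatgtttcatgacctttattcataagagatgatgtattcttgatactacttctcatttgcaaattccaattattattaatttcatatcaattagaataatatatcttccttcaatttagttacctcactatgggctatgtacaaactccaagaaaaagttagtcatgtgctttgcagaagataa

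The Rpsa window held 21 CG dinucleotides and the Sox2 window 27, while Col3a1 and Tyr held 0 and each carried a TATAAA. Rpsa read 14.58, 14.58 and 14.56, and Col3a1 read 14.21, 14.21 and 14.25. Sox2 read 3.77, 4.05 and 3.65, and Tyr read 4.80, 4.41 and 4.67. The 4 genes were chosen for this contrast, so they do not show whether CG content goes with the level. Windows of 300 bases, from 250 before to 50 after the start, were available for 13268 of 16468 protein-coding genes (80.6%). The ratio of observed to expected CG had a median of 0.69 over all of them, 0.77 for intermediate genes and 0.83 for high genes. A ratio over 0.6 was found in 59.1% of all windows, 73.9% of intermediate and 84.3% of high ones. The motif GGGCGG, searched on both strands, occurred in 55.9% of all windows and 70.4% of high ones, CCGGAAG in 14.3% and 22.1%, and TATAAA in 9.68% and 6.56%. CCAAT was nearly even, at 38.2% and 39.6%. The low and control classes had windows for 77.7% and 78.9% of their genes, under the 80% set as a minimum, and no value is given for them. A motif match is a description of the letters and not of a bound site.

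The label of a neural crest precursor was checked against 12 defining genes. Of these, 8 lay above the range and 4 did not, where 54.0% of all genes lay above it. The count alone does not settle the label. The zinc finger repressor Snai2, which drives crest cells out of the neural tube, had the highest mean of the crest transcription factors, at 11.60, 11.59 and 11.47. Pax3, the paired box factor of the dorsal neural tube, read 10.66, 10.58 and 10.67 with all 3 of its probe sets above the range. The AP-2 factor Tfap2b read 9.99, 9.69 and 9.78, and the basic helix-loop-helix factor Twist1 read 9.34, 9.43 and 9.16. All values of these 4 genes lay more than 2 log2 units above the limit of their array.

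The SOXE factors, which hold crest cells in a multipotent state, were nearer the limit. Sox9 read 8.05, 7.90 and 7.95, with another of its probe sets at 7.18 and the remaining one at 4.35, close to TrpnX. Sox10 read 7.19, 7.41 and 7.41, with further probe sets at 7.09 and 5.82. The Sox10 call therefore rests on a margin of under 1 log2 unit. The intermediate filament genes Nes and Vim, carried by many progenitors, stood at 9.44 ± 0.09 and 14.13 ± 0.02, and Vim was among the 50 highest genes.

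Snai1, the other SNAIL factor, lay just under the limit at 6.55, 6.60 and 6.47. Tfap2a read 5.76, 5.89 and 5.70, and the low-affinity neurotrophin receptor Ngfr, used to isolate crest stem cells, read 5.23, 5.53 and 5.44. Foxd3, a forkhead factor of premigratory crest, read 4.41, 4.72 and 4.62, less than 1 unit from TrpnX. None of these 4 genes had a probe set above the range. The line therefore carried Snai2, Pax3, Tfap2b and Twist1 well above the range, while Foxd3, Tfap2a and Ngfr could not be told from genes of unrelated tissues.

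**Figure D2:**
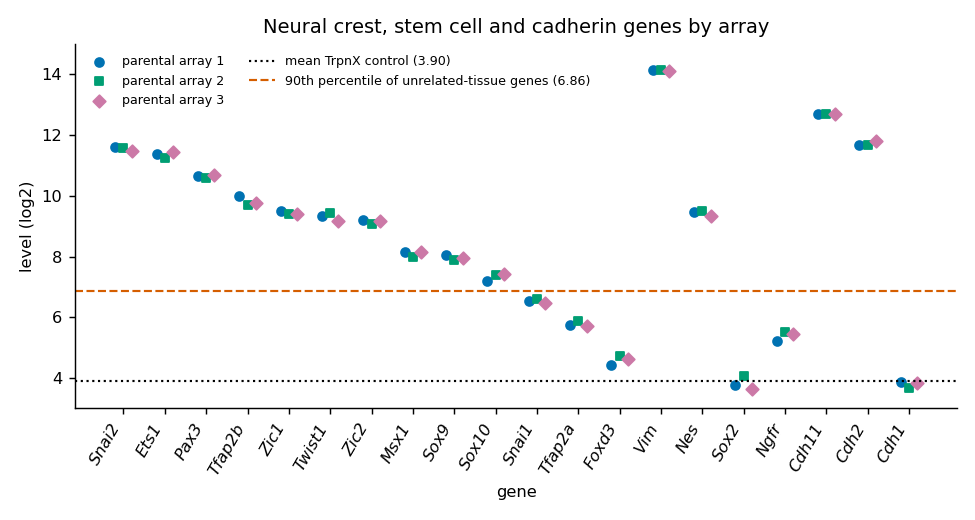
Log2 level of neural crest, stem cell and cadherin genes on each of the 3 parental JoMa1 arrays, 1 symbol per array, with the mean TrpnX level (3.90, dotted) and the mean unrelated-tissue limit (6.86, dashed). Vim, Cdh11, Snai2 and Pax3 sit far above the limit on every array, Sox10 and Snai1 lie on either side of it, and Sox2 and Cdh1 lie at the TrpnX line.

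Across the whole list of crest transcription factors, 14 of 24 measured genes were above the range (58.3%, against 54.0% of all genes), 10 of them with every probe set. The median level was 7.63, against 7.44 over all genes. The ETS factor Ets1, a regulator of crest delamination, read 11.36 ± 0.11 with all 4 probe sets above. The BMP-induced inhibitors Id1 and Id3 read 11.22 ± 0.06 and 11.54 ± 0.05. Zic1 and Zic2, zinc finger factors of the neural plate border, read 9.43 ± 0.06 and 9.15 ± 0.07, and the homeobox gene Msx1 read 8.09 ± 0.09. Its relative Msx2 read 5.64 ± 0.07, Pax7 4.75 ± 0.21, Dlx6 4.56 ± 0.04 and Gbx2 4.02 ± 0.10. Early border genes were therefore found on both sides of the limit.

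Of genes for crest surface proteins, 7 of 18 were above the range (38.9%), a smaller share than among all genes. The mesenchymal cadherin Cdh11 read 12.70, 12.68 and 12.69, and the neural cadherin Cdh2 read 11.67, 11.67 and 11.81. The semaphorin and VEGF co-receptors Nrp1 and Nrp2 read 11.36 ± 0.09 and 10.63 ± 0.09. Several other receptors for survival and migration signals of crest sublineages were not above the range. The endothelin receptor Ednrb read 5.13 ± 0.10, the neuregulin receptor Erbb3 5.83 ± 0.06, the stem cell factor receptor Kit 5.08 ± 0.15, the GDNF receptor Ret 5.90 ± 0.20 and the chemokine receptor Cxcr4 4.19 ± 0.16. The integrin subunit Itga4 read 4.76 ± 0.01 and the Slit receptor Robo2 3.72 ± 0.05. Adhesion and guidance proteins thus stood at both ends of the list, with Cdh11 highest and Robo2 lowest.

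Neural stem cell genes were split, with 8 of 17 above the range (47.1%). Pax6, a homeobox factor of neural progenitors, read 10.11 ± 0.01, but only 1 of its 5 probe sets was above the range. The RNA-binding protein gene Msi2 read 9.98 ± 0.12, and the receptor gene Notch1 read 9.81 ± 0.02. The oligodendrocyte lineage factor Olig2 read 3.49 ± 0.03, and with Sox2 it formed the floor of the list. Among the SOX family, 6 of 19 genes were above the range. The SOXC members, which are widespread in embryonic progenitors, led it, with Sox4 at 13.40 ± 0.02, Sox11 at 11.56 ± 0.05 and Sox12 at 9.70 ± 0.10, and Sox21 read 9.63 ± 0.12. Sox11 was above on all 6 of its probe sets and Sox4 on 5 of 8. Sox3 read 6.64 ± 0.15 and Sox1 5.26 ± 0.08, so that the SOXB1 genes Sox1, Sox2 and Sox3 all stayed below the limit.

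Most lists of crest derivative genes had a smaller share above the limit than all genes (54.0%). Mesenchymal genes had a larger share, and smooth muscle and Schwann cell genes, at 56.3% and 46.7%, lay near it. In the sympathoadrenal list 5 of 20 genes were above, a smaller share than the 54.0% of all genes, and 1 of them had every probe set above. The zinc finger factor Gata3 read 7.20, 7.10 and 6.95, close to the limit, and its relative Gata2 read 8.83 ± 0.13. Dopamine beta-hydroxylase, encoded by Dbh, read 8.57, 8.64 and 8.93 on a probe set with the suffix _x_at, whose probes may match related sequences, while its other probe sets read 6.16 and 5.74. The adrenaline-forming enzyme gene Pnmt read 8.32 ± 0.12 with its other probe sets at 6.85 or lower. The noradrenaline transporter gene Slc6a2 read 7.82 ± 0.10. For these enzymes the call depended on the probe set.

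The rest of the noradrenergic programme was low. Th, the rate-limiting enzyme of catecholamine synthesis, read 4.93, 5.29 and 5.03. The lineage regulators Hand2 and Phox2a read 4.73 ± 0.03 and 4.48 ± 0.10, and Insm1 read 4.41 ± 0.09. The secretory granule gene Chga read 4.63 ± 0.20, the vesicular transporter gene Slc18a2 4.23 ± 0.38 and the receptor kinase gene Alk, mutated in neuroblastoma, 5.17 ± 0.16. None of these 7 genes had a probe set above the range.

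In sensory neuron genes 3 of 13 were above the range (23.1%). They were the RUNX factors Runx3, at 10.21, 10.21 and 10.15, and Runx1, at 7.92 ± 0.27, and the neurotrophin receptor Ntrk2, at 7.63 ± 0.09. Runx3 was above on both of its probe sets, Runx1 on 1 of 6 and Ntrk2 on 1 of 8. The proneural factor Neurod4 read 3.60 ± 0.07 and the sodium channel gene Scn10a 4.45 ± 0.13. Of pan-neuronal genes 6 of 23 were above (26.1%). The adhesion molecule gene Ncam1 read 10.98 ± 0.02 and the neuronal tubulin Tubb3 read 9.43, 9.59 and 9.29. Celf4, an RNA-binding protein gene, read 8.31 ± 0.10 and Uchl1, a neuronal ubiquitin hydrolase gene, 8.15 ± 0.09. Rbfox3, the NeuN gene, read 7.60 ± 0.09 on 1 probe set and 5.61 and 4.79 on the others. Snap25, Elavl4, Nefh and Map2, genes of mature neurons, read 3.63 ± 0.11, 4.36 ± 0.14, 4.40 ± 0.16 and 4.61 ± 0.23, all less than 1 unit from TrpnX.

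Schwann cell and glia genes counted 7 of 15 above the range (46.7%, against 54.0% of all genes). The myelin membrane protein gene Pmp22 read 10.80 ± 0.04 and the POU factor Pou3f1, which Schwann cells use before myelination, read 9.87 ± 0.05. The nucleotide phosphodiesterase gene Cnp read 9.29 ± 0.11, and Egr2, the factor that starts myelination, read 7.23, 7.61 and 7.34. Mbp, encoding a main myelin protein, read 6.80 ± 0.31 with none of 8 probe sets above. S100b read 5.25 ± 0.11, and Cdh19, a cadherin gene of Schwann cell precursors, 4.43 ± 0.03. In the melanocyte list 1 of 12 genes was above (8.33%), the membrane glycoprotein gene Gpnmb at 8.60 ± 0.02, which macrophages and osteoblasts also use. The other Gpnmb probe set read 4.12, not above the range. The master regulator Mitf read 6.60, 6.43 and 6.55, under the limit on each array, and Dct, Tyr, Tyrp1 and Mlana read 5.22 ± 0.24, 4.63 ± 0.20, 4.54 ± 0.28 and 4.07 ± 0.08. The pigment enzyme genes were thus at or within 2 units of TrpnX.

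Smooth muscle genes were above the range in 9 of 16 cases (56.3%), near the 54.0% of all genes. Some of them had very high values. Acta2, smooth muscle actin, read 13.23, 13.15 and 13.25 on a probe set with the suffix _s_at, shared between transcripts, and its other 2 probe sets were not above the range. The actin-binding genes Cald1, Tagln, Tpm1 and Tpm2 read 13.45 ± 0.03, 12.94 ± 0.03, 12.92 ± 0.02 and 12.95 ± 0.01, and calponin 2, Cnn2, read 12.57 ± 0.03. Many mesenchymal cells in culture carry these genes too. Genes more restricted to contractile muscle read low, with Cnn1 at 5.10, 4.91 and 5.12, the myosin Myh11 at 4.62 ± 0.14 and the coactivator Myocd at 5.08 ± 0.11.

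Mesenchymal and fibroblast genes had the largest share above the range of the 13 lineage lists, 19 of 22 (86.4%), with a median level of 10.63. After Col3a1, the matrix protein genes Sparc and Fn1 read 13.14 ± 0.03 and 12.41 ± 0.05, the calcium-binding S100a4 read 13.03 ± 0.02 and the hyaluronan receptor Cd44 read 12.19 ± 0.02. The PDGF receptor genes differed, with Pdgfrb at 11.26, 11.05 and 11.31 and Pdgfra at 8.28, 8.41 and 8.39. The other Pdgfra probe sets read 5.93 and 5.71, not above the range. Col1a1 read 10.82 ± 0.11. The fibroblast surface gene Thy1, the transcription factor gene Tcf21 and the proteoglycan gene Lum read 4.98 ± 0.16, 5.14 ± 0.04 and 5.87 ± 0.11 and were the only 3 members not above the range. Of bone and cartilage genes 3 of 16 were above (18.8%), namely Sox9, Col11a1 at 7.65 ± 0.04 and Phex at 7.51 ± 0.16. The other Phex probe set read 4.68, not above the range. The cartilage collagen Col2a1 spread from 6.11 on array 1 to 7.25 on array 2 and 6.70 on array 3, on both sides of the limit. The osteoblast factor Sp7 read 6.83 ± 0.08, and the matrix genes Hapln1 and Dmp1 read 3.96 ± 0.09 and 4.03 ± 0.03. Runx2 is not analysed here.

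Epithelial genes counted 4 of 20 above, with Cdh1, the epithelial cadherin, at 3.86, 3.67 and 3.85, no higher than TrpnX. Epcam, an epithelial adhesion gene, read 8.21, 8.24 and 8.41 and its other probe set read 7.34. Dsp, a desmosome gene, read 7.97 ± 0.08 and Krt5 7.23 ± 0.07. The Dsp value came from a probe set with the suffix _s_at, and the other Dsp probe sets read 7.51 and 4.29. Esrp1 and Krt18 read 4.42 ± 0.25 and 4.80 ± 0.33. Pluripotency genes counted 2 of 18 (11.1%), Klf4 at 7.90 ± 0.06 and Esrrb at 7.59 ± 0.13. The Esrrb value came from a probe set with the suffix _x_at, and its other probe sets read 4.71 and 4.70. Pou5f1 read 5.22 ± 0.05, Nanog 4.94 ± 0.14 and Tdgf1 3.62 ± 0.11. Markers of cells that the crest does not form were also read. Endothelial markers counted 2 of 12, Flt1 at 7.55 ± 0.06 and Kdr at 7.30 ± 0.12, with Vwf and Pecam1 at 4.27 ± 0.22 and 4.55 ± 0.19. The other Flt1 probe sets read 6.38, 5.92 and 5.21, not above the range. Blood cell markers counted 2 of 14, Cd14 at 7.43 ± 0.12 and Csf1r at 7.05 ± 0.13, with the pan-leukocyte gene Ptprc at 4.14 ± 0.24. The other Csf1r probe sets read 6.97 and 6.60, not above the range. The highest endothelial and blood cell values lay within 1 unit of the limit. In bulk RNA a small number of cells with a gene and a low level in all cells cannot be told apart.

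**Figure D3:**
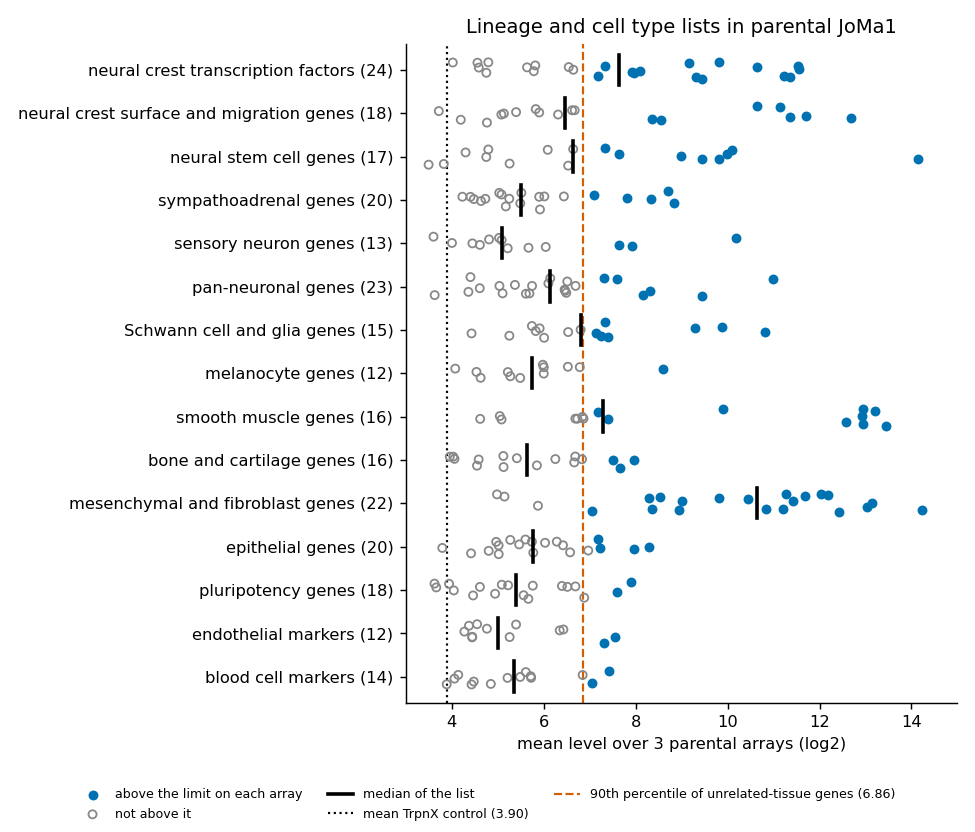
Mean log2 level of each gene in the lineage and other cell type lists on the 3 parental JoMa1 arrays, 1 point per gene, filled when above the unrelated-tissue limit on all 3 arrays and open otherwise. Mesenchymal genes lie mostly above the dashed limit, with 19 of 22 filled, and melanocyte, pluripotency, endothelial and blood cell genes lie mostly below it.

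HOX genes mark the position of a cell along the body axis, with low-numbered paralogues in the hindbrain and neck and high-numbered ones in the tail, and crest of the rostral head carries none. In JoMa1 17 of 33 measured genes were above the range (51.5%). Of paralogues 1 to 4, 5 of 10 were above, of paralogues 5 to 9, 11 of 13, and of paralogues 10 to 13, 1 of 10. The highest was Hoxc8 at 11.48, 11.46 and 11.46. Hoxc9 read 11.33, 11.17 and 11.15, Hoxa9 11.15, 11.29 and 11.21, and Hoxb9 10.99, 10.92 and 10.77. These 4 genes of the thoracic part of the clusters were high on each array, and Hoxa5 followed at 10.84 ± 0.08.

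Beyond paralogue 9, Hoxa10 read 8.98, 9.21 and 9.22 on the higher of its 2 probe sets, while the other averaged 5.87. Hoxa11 read 5.07 ± 0.23 and Hoxd10 3.74 ± 0.12. At the other end Hoxb1 and Hoxd1 read 3.86 ± 0.11 and 4.02 ± 0.10, and Hoxb2 and Hoxb3 read 9.47 ± 0.07 and 9.85 ± 0.12. By cluster, 5 of 9 genes of the A cluster, 6 of 9 of B, 5 of 7 of C and 1 of 8 of D were above the range. The D cluster member was Hoxd8, at 8.75 ± 0.05, and its neighbour Hoxd9 read 6.56 ± 0.10. Exceptions within the middle paralogues were Hoxb7, at 5.14 ± 0.20, and Hoxd9. Hoxa4 read 5.03 ± 0.10 although Hoxa3, at 7.79 ± 0.25, and Hoxa5 lay above the range. Hoxb8 is not analysed here.

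**Figure D4:**
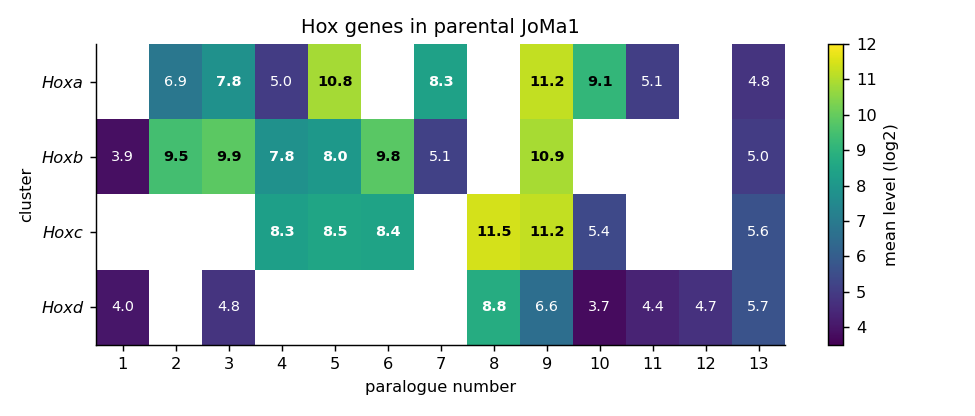
Mean log2 level of 33 HOX genes over the 3 parental JoMa1 arrays, by cluster (rows A to D) and paralogue number (columns 1 to 13), with bold numbers for genes above the unrelated-tissue limit on all arrays. White cells have no gene or no probe set used here. Bold cells fill most of paralogues 5 to 9 and 1 cell beyond paralogue 9.

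Partners of the HOX proteins and other genes of regional identity were read beside them. The HOX partners Pbx3 and Meis2 read 11.14 ± 0.04 and 10.59 ± 0.06, and Irx3 read 9.94, 9.94 and 9.95. Six4, a placode and muscle homeobox gene, read 10.16 ± 0.09, and Tbx1, a pharyngeal T-box gene, 9.86 ± 0.05. The forebrain and midbrain genes Emx2, Otx2, En1 and En2 read 3.55 ± 0.07, 3.96 ± 0.02, 4.20 ± 0.06 and 4.08 ± 0.19, all within 1 unit of TrpnX. Of this list 11 of 30 were above the range (36.7%).

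FGF signals through receptor kinases to the ERK cascade. Of 22 FGF ligand genes 2 were above, Fgf7 at 11.15, 11.21 and 11.14 and the hormone gene Fgf21 at 8.09 ± 0.12, while Fgf2 and Fgf8 read 4.15 ± 0.11 and 4.32 ± 0.05. Of 5 receptor genes 3 were above, led by Fgfr1 at 11.29, 11.25 and 11.16, with Fgfr2 at 9.48 ± 0.08. Of the feedback inhibitors and ETS targets of the pathway 5 of 6 were above. The phosphatase gene Dusp6 read 11.22 ± 0.04, Spry1 9.26 ± 0.06, Etv4 8.50 ± 0.04 and Etv5 8.42 ± 0.02. Etv4 was above on 1 of 2 probe sets and Etv5 on 1 of 3.

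Of the ERBB receptors, which bind the EGF family, Egfr read 9.92, 9.80 and 9.80 with 3 of 7 probe sets above, and Erbb2 read 8.18 ± 0.09. Erbb4 read 3.92 ± 0.08, level with TrpnX. Of EGF family ligands 3 of 10 were above, Hbegf at 9.39 ± 0.06, Nrg1 at 7.79 ± 0.13 and Nrg2 at 7.09 ± 0.23. The feedback inhibitor Errfi1 read 10.75 ± 0.08. In the PDGF, KIT and MET group 9 of 15 were above. The ligand genes Pdgfc and Pdgfa read 12.40 ± 0.05 and 9.55 ± 0.03 beside the high Pdgfrb. Ligand and receptor genes of this axis were thus above together, Pdgfra only by its highest probe set. Axl and Met, receptor kinases, read 11.44 ± 0.04 and 10.04 ± 0.02, each on 1 of 2 probe sets, and the MET ligand Hgf read 5.98 ± 0.36. Kitl, the ligand of Kit, read 8.45 ± 0.11 on 1 of 4 probe sets while Kit itself lay below.

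The IGF axis was above the range in 15 of 16 genes (93.8%). Its receptors Igf2r and Igf1r read 11.34 ± 0.08 and 10.57 ± 0.08 and the adaptor Irs1 read 10.67 ± 0.04. The ligands Igf2 and Igf1 read 8.15, 7.94 and 7.91 and 7.66, 7.37 and 7.33, each on 1 of several probe sets. The binding protein gene Igfbp6 read 10.88 ± 0.05, and the 1 gene not above was Igfbp1, at 4.28 ± 0.06. In the neurotrophin, GDNF and endothelin group 7 of 16 were above (43.8%). The ligands Bdnf and Nrtn read 8.98 ± 0.06 and 8.37 ± 0.11, and the co-receptor Gfra2 read 8.58 ± 0.15 on 1 of 5 probe sets. Ntrk3 read 5.67 ± 0.22 with none of 8 probe sets above, and Gdnf read 5.01 ± 0.33. Edn3, the endothelin for crest, read 7.17 ± 0.20 on 1 of 4 probe sets while its receptor Ednrb was not above.

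TGF-beta and BMP signals pass through receptor kinases to SMAD factors. All 9 receptor genes of the family were above the range, with Tgfbr2 at 11.58, 11.56 and 11.60, Bmpr2 at 11.53 ± 0.04 and Bmpr1a at 11.25 ± 0.05, although 1 of the 9 had every probe set above. The shared mediator Smad4 read 12.38 ± 0.05. All 3 TGF-beta ligand genes were above, led by Tgfb2 at 9.54 ± 0.04, against 2 of 7 BMP ligand genes, Bmp4 at 8.63, 8.70 and 8.47 and Bmp7 at 7.64 ± 0.21. The BMP antagonist Grem1 read 10.32 ± 0.04 and Nog, another antagonist, 4.59 ± 0.16. Over the axis 28 of 35 were above (80.0%).

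Wnt signals, which induce the crest, act through Frizzled receptors and beta-catenin. Of 19 Wnt ligand genes 6 were above, none with every probe set, and of 10 Frizzled genes 8 were above. Ctnnb1, beta-catenin, read 13.78, 13.81 and 13.84. Fzd2 and Fzd1 read 11.66 ± 0.03 and 10.84 ± 0.03, and Lgr4, an R-spondin receptor gene, 11.61 ± 0.04. Wnt5a led the ligands at 10.83, 10.54 and 10.70, while Wnt1, the dorsal neural tube ligand, read 4.86 ± 0.04 and Wnt3 3.82 ± 0.05. Lef1 and Axin2, commonly read as targets of the pathway, read 5.82 ± 0.06 and 6.98 ± 0.09, neither above the range. Axin2 missed it on array 2 alone, where it read 6.88 against a limit of 6.94.

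In the Notch axis 12 of 22 were above (54.5%). The receptor genes Notch2 and Notch3 read 10.93 ± 0.04 and 9.08 ± 0.25 beside Notch1, and Notch4 read 4.79 ± 0.12. The ligand genes Jag1 and Jag2 read 9.34 ± 0.11 and 9.72 ± 0.06, and Dll1 read 5.65 ± 0.18. The DNA-binding mediator Rbpj read 10.70 ± 0.03. Of HES and HEY target genes 2 of 7 were above, Hes1 at 8.98, 9.11 and 8.87 and Hes6 at 8.69 ± 0.07. Hes5 and Hey2 read 6.09 ± 0.05 and 4.27 ± 0.06. The atypical ligand Dlk1, an imprinted gene, read 11.49 ± 0.06.

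Hedgehog ligands act through the receptor PTCH and SMO on the GLI factors. The ligand genes Shh, Ihh and Dhh read 5.60 ± 0.04, 5.10 ± 0.13 and 5.91 ± 0.14, 0 of 3 above the range. All 9 genes for receptors, co-receptors and effectors were above it, 4 of them on every probe set. The co-receptor Gas1 read 13.66 ± 0.03, Smo 11.02 ± 0.04, Gli2 10.86 ± 0.03 and Gli3 10.75 ± 0.03. The pathway targets Ptch1 and Gli1 read 10.49 ± 0.06 and 7.21, 7.20 and 7.22, and the target Hhip read 4.99 ± 0.16, not above. Ptch1 was above on 1 of its 3 probe sets.

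**Figure D5:**
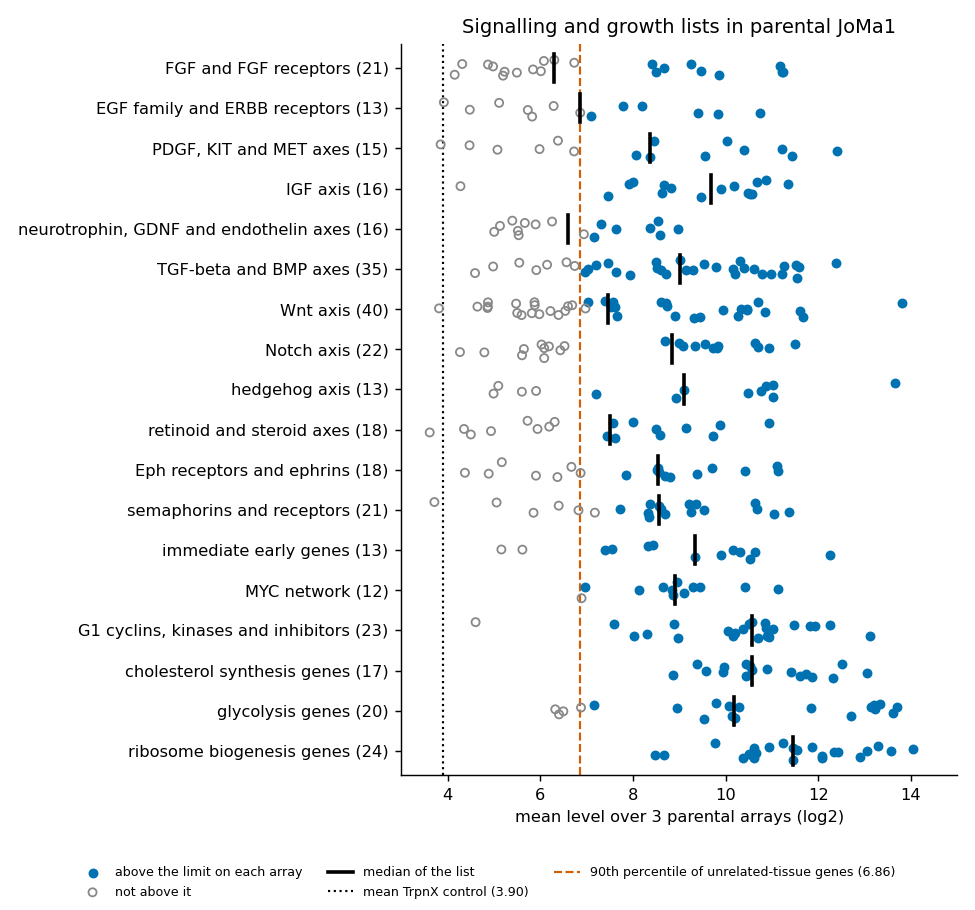
Mean log2 level of each gene in 18 signalling and growth lists on the 3 parental JoMa1 arrays, 1 point per gene, filled when above the unrelated-tissue limit on all 3 arrays and open otherwise, with a black bar at each list's median. All 24 ribosome biogenesis and all 17 cholesterol synthesis genes are filled, while the FGF and Wnt lists hold both filled and open points.

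Of retinoic acid receptor genes 5 of 6 were above, with Rxrb at 9.87 ± 0.06, Rarg at 9.15 ± 0.10 and Rarb at 7.62 ± 0.18. Of the enzymes that make or break down retinoic acid 0 of 5 were above, with Aldh1a1 at 3.62 ± 0.05, Aldh1a2 at 4.50 ± 0.17 and Cyp26a1 at 4.94 ± 0.20. The receptor for retinol-binding protein, Stra6, read 8.49 ± 0.16 and the retinoic acid carrier Crabp1 8.01 ± 0.21. Esr1, the oestrogen receptor gene, read 10.93, 10.92 and 10.93 on 1 probe set, and its others averaged 5.32 and 4.51. Whether any Esr1 or Myc probe set reads the fusion transcript of the line was not tested. Guidance genes were read by role too. Of ephrin genes 6 of 8 were above and of Eph receptors 5 of 13, led by Efnb2 at 11.12 ± 0.06 and Epha3 at 11.13 ± 0.07, and Epha5 read 4.38 ± 0.03. Of class 3 semaphorins 5 of 7 were above, with Sema3e at 11.03 ± 0.03 on all 4 probe sets and Sema3a at 9.20 ± 0.04, beside 8 of 11 plexin and neuropilin genes.

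The MYC network was above the range in 11 of 12 genes (91.7%). Myc read 8.65, 8.52 and 8.75 on its 1 probe set. Mycn, the gene transfected to make the tumour lines, read 8.23, 8.14 and 8.01 on its brightest probe set in these cells, with others at 7.42 and 5.76. Mycl read 6.87, 7.05 and 6.95, near the limit on every array. The partner Max read 8.95 ± 0.06. The MAX-binding repressor genes Mxi1 and Mnt read 11.12 ± 0.03 and 10.41 ± 0.03, and Mxd1 read 6.89 ± 0.16, the 1 member not above. Probe sets of different genes cannot be set against each other exactly, so no order of protein or transcript amounts follows.

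All 26 replication genes and all 24 mitosis genes were above the range by their highest probe sets, with medians of 11.28 and 11.28. By the lowest probe set of each gene, with the limit taken the same way, 19 replication and 14 mitosis genes were above. Of all 18193 genes, 6711 were above under that setting. The clamp protein gene Pcna read 13.80, 13.85 and 13.79, the helicase subunit Mcm7 13.06 ± 0.02 and the reductase subunit Rrm2 12.76 ± 0.02. The proliferation marker Mki67 read 12.03, 12.08 and 11.94, Top2a 12.80 ± 0.03 and Cdc20 12.84 ± 0.03. The lowest members were Orc1, at 8.18 ± 0.11, for replication and Foxm1, at 8.86 ± 0.07, for mitosis, both still above the limit by more than 1 unit on each array. Promoter windows were available for 21 of the 26 replication genes, and 81.0% of them held CCAAT, against 38.2% of all windows. Growth lists differed in this share. It was 25% in cytosolic ribosomal protein, 35% in ribosome biogenesis, 12.5% in translation factor and 42.1% in glycolysis genes.

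In the G1 list 22 of 23 were above (95.7%), inhibitors included. The kinase Cdk4 read 13.10 ± 0.02 and the cyclins Ccnd1 and Ccnd2 read 11.81, 11.83 and 11.81 and 11.93 ± 0.02. Cdkn2a, which encodes the INK4A and ARF tumour suppressors, read 12.41, 12.20 and 12.17, and its neighbour Cdkn2b read 11.46 ± 0.02. Cdkn1a, a p53 target, read 10.97, 10.92 and 10.74 and Cdkn1b 11.01 ± 0.07. Cdkn1c, the imprinted inhibitor, read 4.60 ± 0.32 and was the 1 gene not above. Mdm2, the ubiquitin ligase of p53, read 10.93 ± 0.06. Trp53 itself is not analysed here. Of apoptosis regulators 16 of 19 were above (84.2%), with Mcl1 at 12.41 ± 0.03 on all 6 probe sets, Bcl2l11 at 10.74 ± 0.07 and Bcl2 at 9.18 ± 0.04. Casp8, an initiator caspase gene often silenced in neuroblastoma, read 5.23, 5.24 and 5.53.

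Protein synthesis genes formed the top of the whole ranking. Of the 30 highest genes 22 encode ribosomal proteins, and of the 100 highest 35 do, out of 49 measured. The highest gene was Lgals1, galectin 1, at 14.67, 14.69 and 14.67, followed by the actin-binding Tmsb10 at 14.61 ± 0.01, Tpt1 at 14.60 ± 0.01, Rpl41 at 14.60 ± 0.04 and Rpl7a at 14.59 ± 0.01. Eef1a1, the elongation factor, read 14.58 on each array, and the actins Actg1 and Actb read 14.44 ± 0.01 and 14.42 ± 0.02. The 30 highest genes all lay between 14.25 and 14.68, so that their order is loose. Of the 49 ribosomal protein genes 45 were above, and the other 4 lay at the control level on 1 probe set each. Rps16 was one of them at 4.20 ± 0.22, and the others, named after their values were seen, were the paralogues Rpl39l, Rpl3l and Rps4l at 4.33 ± 0.16, 4.54 ± 0.18 and 4.46 ± 0.20. Whether the Rps16 probe set used here reads that transcript was not tested, so its value does not show that Rps16 is silent. All 24 ribosome biogenesis genes were above, from Npm1 at 14.04 ± 0.01, Ncl at 13.56 ± 0.01 and Fbl at 13.28 ± 0.02 down to Rrp12 at 8.48 ± 0.05, and so were all 19 translation factors, down to Eef1a2 at 7.84 ± 0.07.

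Among metabolic genes, all 17 cholesterol synthesis genes were above the range (11 by their lowest probe sets), from Hmgcs1 at 13.04 ± 0.02 to Mvk at 8.87 ± 0.12, and of the 14 with a promoter window 92.9% held CCAAT and 92.9% GGGCGG. Of glycolysis genes 16 of 20 were above (80.0%). Pgk1, Ldha and Pgam1 read 13.69 ± 0.01, 13.62 ± 0.03 and 13.23 ± 0.01, and the muscle and brain isoenzyme genes Pgam2, Aldoc and Eno2 read 6.41 ± 0.15, 6.32 ± 0.05 and 6.50 ± 0.11. Eno3, the muscle enolase, was an exception among such isoenzymes, at 10.08 ± 0.03.

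Oncofetal and silencing genes were also read. Hmga2, a chromatin protein gene of embryonic cells, read 11.73, 11.73 and 11.63, and the IGF2 mRNA-binding genes Igf2bp3 and Igf2bp1 read 10.18 ± 0.05 and 9.90 ± 0.23. Lin28a and Lin28b, which block let-7 maturation, read 4.46 ± 0.10 and 3.66 ± 0.15. Hmga2 was above on 3 of 4 probe sets and neither LIN28 gene on any. Of the DNA methyltransferases, Dnmt1, the maintenance enzyme, read 11.58 ± 0.05, Dnmt3a 9.49 ± 0.01 and Dnmt3b 8.05 ± 0.07, and the germ-cell cofactor Dnmt3l read 5.97 ± 0.05. Uhrf1, which brings DNMT1 to replicated DNA, read 12.12 on each array and Trim28 13.20 ± 0.06. Tert, the telomerase reverse transcriptase gene, read 5.46, 5.41 and 5.69. Of imprinted genes 15 of 23 were above (65.2%), with Gnas at 13.59 ± 0.03, Peg3 at 12.77 ± 0.07, Mest at 12.74 ± 0.04 and Grb10 at 12.55 ± 0.02. Meg3, the maternally expressed neighbour of Dlk1, read 7.13 ± 0.11 on 1 of 11 probe sets.

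Basement membranes are sheets of collagen IV, laminin and nidogen that crest cells cross as they migrate. Of basement membrane genes 12 of 17 were above (70.6%), led by the collagen IV chain Col4a1 at 12.93, 12.89 and 12.76, nidogen, Nid1, at 12.54 ± 0.03 and the laminin chain Lamb1 at 11.94 ± 0.05. Lamc1 read 10.30 ± 0.07. Of laminin alpha chains Lama5 read 7.92 ± 0.21, while Lama1, Lama2 and Lama4 read 4.70 ± 0.04, 6.25 ± 0.19 and 4.87 ± 0.10. Of integrin subunits 8 of 18 were above (44.4%), with Itgav at 12.44 ± 0.02, Itgb1 at 11.13 ± 0.05 and Itgb5 at 10.62 ± 0.04. Itga5, the fibronectin receptor subunit, read 7.65, 7.86 and 7.47 on 1 of 4 probe sets. Of cadherins 3 of 16 were above, Cdh11, Cdh2 and Cdh10, the last at 9.70 ± 0.14 on 1 of 4 probe sets. Bex1, which encodes a small adaptor protein known from neurons, read 12.97, 12.98 and 12.96, and Bex3 and Tceal9 read 12.80 ± 0.03 and 13.49 ± 0.06. Bex2, Bex4 and Bex6 read 5.45 ± 0.11, 4.18 ± 0.10 and 3.55 ± 0.13, so that the family was split between the top and the bottom of the scale.

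Immediate early genes, which growth factors switch on within minutes, were above the range in 11 of 13 cases (84.6%). Egr1 read 12.32, 12.26 and 12.15, Jund 10.63 ± 0.06 and Fos 10.17 ± 0.05, and Fosb read 5.16 ± 0.22. Of interferon and MHC class I genes 17 of 23 were above (73.9%). The MHC light chain gene B2m read 13.27 ± 0.05, Irf1 10.83 ± 0.05, H2-D1 9.54 ± 0.08 and H2-K1 9.30 ± 0.08, and the interferon-induced Mx1 read 3.93 ± 0.11 and Usp18 5.65 ± 0.07. The H2-D1 and H2-K1 probe sets can share sequence with related MHC genes, so their values are uncertain.

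Few genes above the range varied between the arrays. The largest SD belonged to Slc5a9, at 7.27, 8.16 and 7.31, Gpr85, at 8.36, 7.43 and 7.93, Daam2, at 8.11, 7.23 and 7.73, and Macroh2a2, at 9.78, 9.64 and 10.38. Efna3, Mettl5, Mamdc2, Eif2a, Mical1 and Hps1 followed, with SDs of 0.31 to 0.37. Among the 100 most variable genes above the range, array 2 was farthest from the others in 41, array 3 in 39 and array 1 in 20, so no array alone set the spread. The values next to the limit show how narrow the calls can be. The 5 genes just above it had margins of 8e-05 to 0.00065 on their closest array and the 5 just below of -0.0039 to -0.00041, and 816 genes (4.49%) lay within 0.25 of it.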

How the data were processed

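Total RNA of cultured mouse cells was hybridised to Affymetrix expression arrays, 1 array per sample. The deposited table gives each probe set a log2 value on each array. The submitters' processing notes name RMA and Partek, without versions. RMA subtracts background, sets arrays to 1 distribution and summarises probes, which pulls weak signals together and makes levels relative to the array. A genome build for that step is not given in the sources used. That values are log2 was judged from their range.

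Of 45101 probe sets, 64 were controls, 34945 had 1 gene symbol, 932 several and 9160 none. The platform annotation was matched by gene ID to RefSeq of GRCm38.p6 for 34741 probe sets, and 0 symbols changed. Each of 18193 genes took its single-symbol probe set with the highest mean over the 3 parental arrays, and for 1614 genes that probe set has the suffix _x_at or _s_at, which marks probes shared with other transcripts. Distances were taken from the mean of 3 TrpnX probe sets on each array. The number of arrays limits the precision. No test was run, since 1 group is described.

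Named genes were a set of anchors, the 30 highest, up to 4 highest and 3 lowest per list, and the 10 most variable above the range. A few others were named after their values were seen, to complete a family or a role. Members and the 49 lists, of 1027 genes of which 83 have no probe set used here, were chosen with earlier results of these data known. Promoters were RefSeq windows. Alternatives were other probe set rules, other limits, other normalizations and leaving out each array. The ranking and counting steps were tested on simulated data. Python 3.11.15, pandas 2.3.3, numpy 2.4.6 and matplotlib 3.10.9 were used.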

Additional observations from a re-analysis of the deposited data

How the results depend on the processing

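Of 42 anchor genes, 30 kept their side of the limit under all 15 alternatives, some of which could not move a gene across it. The number of genes above the range, 9828, ran from 6711 with each gene's lowest probe set to 12148 with the limit taken from olfactory receptor genes, and from 9852 to 9973 with any 1 array left out. Crest transcription factors above the range ran from 10 to 17 and HOX genes from 15 to 19 over the alternatives. No paired analysis was possible because only 1 group is described. No value moved beyond its threshold when 1 array was left out. Centring the arrays moved none either, but the limit and TrpnX were taken on each array, so it could not change a call. Repeating quantile normalization also moved none, but RMA had already set the arrays to 1 distribution, so little could change. Taking the highest TrpnX probe set as the control level leaves the limit unchanged, so it could move classes only. The cause of the moves below was not tested, beyond what each setting changes by its construction.

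The choice of probe set mattered most. With the lowest probe set of each gene, 5896 genes lay at the control level and 1722 were high. Over all genes, 6711 were then above the range, against 9828, so the list counts fell beside a lower background. Crest surface genes above the range then numbered 3, neural stem cell genes 3, sympathoadrenal genes 2, sensory neuron genes 1, pan-neuronal genes 3, Schwann cell genes 4, mesenchymal genes 11, epithelial genes 2, pluripotency genes 1 and endothelial markers 1. Signalling, growth and family lists fell too, to 14 mitosis, 11 cholesterol synthesis, 6 imprinted, 6 forkhead, 8 Wnt, 4 hedgehog, 16 TGF-beta and BMP, 5 FGF, 7 Notch, 6 Eph and ephrin, 7 semaphorin, 6 MYC network, 5 integrin and 11 interferon and MHC class I genes. With the mean of the probe sets, 9303 of all genes were above the range and 2250 were high. Epithelial genes above the range then numbered 2, pluripotency genes 1 and endothelial markers 1. Of the 30 highest genes, 15 were shared with the mean, 15 with the lowest probe set and 18 without _x_at and _s_at probe sets. Without such probe sets, 9849 genes in all and 2 melanocyte genes were above.

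Margins over the limit on the closest array turned negative for some anchors. With the lowest probe set they were -0.84 for Mycn, -1.98 for Mycl, -2.21 for Sox9, -0.89 for Sox10, -0.36 for Nes, -0.94 for Dbh, -1.93 for Acta2, -2.65 for Egfr and -1.61 for Itga5. With the mean they were -1.05 for Mycl, -0.13 for Sox9 and -0.45 for Itga5. Without _x_at and _s_at probe sets they were -0.54 for Dbh, -2.15 for Acta2 and -0.44 for Itga5.

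A higher limit, the 95th percentile, gave margins of -0.46 for Mycl and -0.14 for Sox10, and counts of 3 Schwann cell genes, 2 epithelial genes, 1 endothelial marker and 0 blood cell markers. A limit of 3 above TrpnX gave -0.030 for Mycl. Lower limits brought genes in. Of all genes, 9003 were above with the 95th percentile, 11202 with the 75th, 10971 with the array median and 12148 with olfactory receptor genes. These are the backgrounds for the list counts under each limit. With the 75th percentile, the margins were 0.24 for Snai1, 0.22 for Mitf and 0.041 for Col2a1, and the counts were 11 pan-neuronal, 3 melanocyte, 6 bone and cartilage, 7 epithelial, 6 pluripotency and 4 endothelial genes. With the array median as the limit, Snai1 had 0.18 and Mitf 0.16, and the counts were 10 pan-neuronal, 3 melanocyte, 5 bone and cartilage, 7 epithelial, 6 pluripotency and 4 endothelial genes. With olfactory receptor genes, Snai1 had 0.55, Mitf 0.63 and Col2a1 0.47, and the counts were 11 crest surface, 13 pan-neuronal, 11 Schwann cell, 6 melanocyte, 7 bone and cartilage, 9 epithelial, 6 pluripotency and 4 endothelial genes.

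The level of TrpnX limits what can be read. In all, 3985 of 9010 genes with several probe sets had some above the range and some not.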

Other observations

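Families outside the lists above were read by symbol, with the background of 54.0% of all genes above the range. Of chemokine ligands 9 of 30 were above. Ccl2, the monocyte attractant, read 11.07, 11.07 and 11.02, Cxcl1 10.20 ± 0.06, Ccl7 9.35 ± 0.11 and Cxcl12, the ligand of Cxcr4, 9.33 ± 0.10, while Cxcl3 read 3.75 ± 0.04. Of interleukin and chemokine receptors 11 of 46 were above, led by Il17rc at 9.67 ± 0.10 and Il13ra1 at 9.63 ± 0.09. KLF factors were above in 11 of 16 cases, with Klf9 at 10.69 ± 0.06, and forkhead factors in 19 of 37, with Foxp1 at 11.78 ± 0.06, Foxc1 at 10.92 ± 0.04 and Foxd1 at 10.84 ± 0.08. Tead1 and Tead2, DNA-binding partners of YAP, read 11.61 ± 0.03 and 11.20 ± 0.07.

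Other families were mostly not above. They were voltage-gated channel subunits with 14 of 89, glutamate and GABA receptors with 3 of 32, keratins with 7 of 44, protocadherins with 7 of 35, claudins with 3 of 20 and LIM homeobox factors with 1 of 12. Exceptions within them were Pcdh19 at 11.18 ± 0.07, Cldn12 at 11.28 ± 0.03 and the channel gene Kcnj11 at 9.82 ± 0.09 on 1 of 2 probe sets. Of 69 olfactory and vomeronasal receptor genes 1 was above, Vmn1r44, at 8.07, 8.43 and 8.33. Xist, chosen after its values were seen, read 13.30, 13.22 and 13.12 with all 3 probe sets above the range, and the Y-linked genes Eif2s3y, Uty and Kdm5d read 3.78 ± 0.06, 4.56 ± 0.24 and 4.86 ± 0.24.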
